A study of Homo sapiens with 32 samples.

Results

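The regions described here differed with androgen at exon level, while the RMA value of the gene that holds them stayed within a set limit. They are exon-level probe sets of the Human Exon 1.0 ST Array, each a small group of probes that reads 1 exon or a part of it. Of 620335 probe sets deposited at exon level, 87 in 72 genes met the conditions. They were chosen by 3 values. The mean exon-level RMA value was 7 or more in at least 1 group, the group means differed by 1 or more on the log2 scale (a 2-fold difference), and the gene-level RMA means of the same gene differed by less than 0.3. Each probe set had a single gene symbol, and exactly 1 gene-level cluster carried that symbol alone, which holds for 203158 probe sets in 12896 genes. Clusters of several symbols were not used, and of the 72 genes *RRM2*, *NAV2* and *TSC2* also occur in such clusters. Before the exon-level difference was asked for, 44838 probe sets in 6962 genes were left. Since the same 8 arrays and the same contrast selected the 87 probe sets, their differences are a description and carry no test.

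The arrays profiled LNCaP, an established human prostate cancer cell line that expresses the androgen receptor. All cells were in RPMI-1640 with 10% charcoal-stripped FBS, which removes steroids and is called steroid-deplete medium. After 72 hours the R1881 group (n = 4) was given 10 nM of the synthetic androgen R1881 for 24 hours, while the steroid-deplete group (n = 4) stayed without it for the same time, per the study's methods. The methods describe the experiment as run in quadruplicate. Both groups are 1 cell line, so the spread between arrays covers repeats of that line only.

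The androgen receptor is a transcription factor that binds DNA once it has bound hormone. A gene can give several mRNAs by starting at different promoters, by skipping or keeping internal exons, or by ending at different polyadenylation sites. A value for the whole gene averages over all of these, whereas a probe set follows only the mRNAs that hold its own exon.

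At gene level, 4 of 9 LNCaP markers had a cluster of their own symbol (*KLK3*, *KLK2*, *TMPRSS2* and *HOXB13*), with group means between 8.66 and 12.24. Of 6 markers of basal, immune, endothelial and stromal cells, 4 could be read (*PTPRC*, *PECAM1*, *COL1A1* and *COL1A2*), with group means between 2.26 and 6.58. *KLK3*, which encodes prostate-specific antigen, read 10.31, 10.50, 10.36 and 10.48 in steroid-deplete medium and 12.21, 12.33, 12.25 and 12.16 with R1881. The 4 treated arrays were all above the 4 controls, as the labels give them.

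Of the genes described, *PDE4D*, *TSC2*, *TACC2* and *RIMS1* were also followed by RT-PCR in the study, which designed primers in named exons. Some of these primers are shown because they mark which ends and exons of these genes were assayed apart from the rest. Which probe set each primer overlaps was not analysed here. They run 5′ to 3′, all in lower case since no part of them is singled out.
PDE4D (chromosome 5), exon 2 forward: ttggaacaagctgacttgaaaa
PDE4D, exon 3 forward: taatccgcattgtccaaacc
PDE4D, exon 7 reverse: tgtggacaaaatttgcttgg
TSC2 (chromosome 16), exon 8 forward: gccgtggtctgctacaactg
TSC2, exon 10 reverse: aacacagatgtcggcgagtt
TSC2, exon 41 forward: gcctcacaggtgcatcatag
TSC2, exon 42 reverse: gcactggggtcaggacttta
TACC2 (chromosome 10), exon 12 forward: cactgagggaagacgagagg
TACC2, exon 12 reverse: tgctgctttccagaaggaat
TACC2, exon 21 forward: gccagatgaagagagccttg
TACC2, exon 21 reverse: accccttctgcactctctga
RIMS1 (chromosome 6), exon 8 forward: catcctgtaacgtggcaacc
RIMS1, exon 9 reverse: tgtccaactacatctgctaggc
RIMS1, exon 34 forward: tggaaaatggggcctgtat
The *PDE4D* set has a forward primer in exon 2 and another in exon 3 with a shared reverse primer in exon 7. The *TSC2* set reads exons 8 to 10 apart from exons 41 and 42.

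After R1881, 28 probe sets were higher and 59 were lower. These are 0.0624% and 0.132% of the 44838 probe sets that met the other conditions, and the percentages are what the rule itself fixed. The split rested on the scaling, with 38 higher and 48 lower when the exon-level arrays were centred on their medians, and 22 higher and 114 lower when the gene-level arrays were. By contrast, 36850 probe sets at the same level lay in genes whose gene-level means differed by 0.3 or more, and 8139 of them (22.1%) differed by 1 or more. The median size of the 87 differences was 1.20, the greatest was 2.40, and 14 reached 1.5. Close to the limit the distribution was continuous, with 33 probe sets between 1 and 1.1 in size and 69 between 0.9 and 1. Just inside it lay *KDM2B* (-1.0003), *PHF6* (1.0025) and *P2RX3* (1.0026). Just outside lay *INSR* (-0.9999), *GTPBP8* (-0.9992) and *WWC3* (-0.9979).

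**Figure D1:**
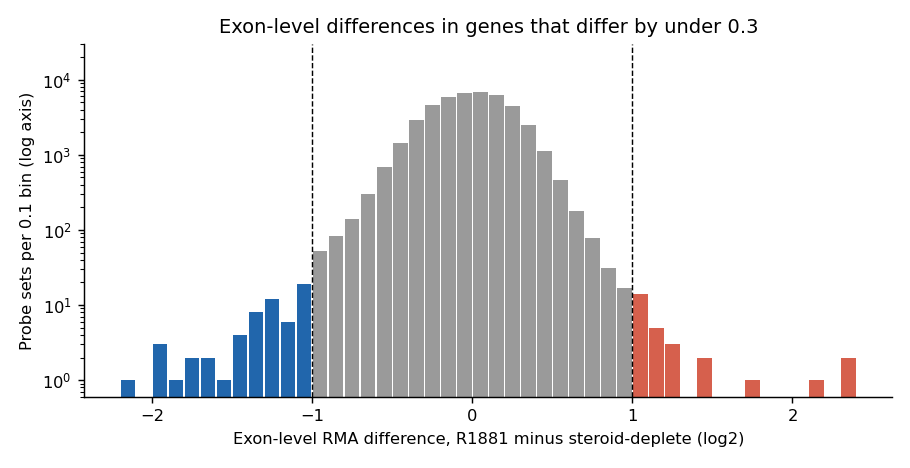
Number of probe sets (vertical log axis) in each 0.1 bin of the exon-level RMA difference between R1881 and steroid-deplete medium (horizontal axis, log2), for the 44838 probe sets that met the other conditions. Dashed lines mark the limits at -1 and 1; the 59 lower probe sets are blue, the 28 higher ones red, and no gap separates them from the grey bins.

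Most genes gave a single probe set. There were 62 such genes, 7 genes had 2, *SPAG9* and *TACC2* had 3 each, and *PDE4D* had 5. Of the 72 genes, 26 had only higher probe sets, 44 had only lower ones, and 2 (*PDE4D* and *TACC2*) had both. Probe sets of adjacent identifier, meaning identifiers that differ by 1, were found in 1 gene, *SPAG9*. If the next deposited probe set of the same gene counts as adjacent, whatever its identifier, there were 4 genes (*GATA6*, *PDE4D*, *SPAG9* and *SRPK2*).

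The files give no coordinates for probe sets, so places along a gene are given as the order of identifiers. Between neighbouring genes, identifiers ascended with chromosome position in 98.5% of pairs on the plus strand and 98.6% on the minus strand (RefSeq order). If the same holds within a gene, low identifiers lie at the start of a plus-strand gene and at the end of a minus-strand gene. The stretches described next were marked out after their values had been seen.

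*SPAG9*, on the minus strand of chromosome 17, encodes JIP4, a scaffold for JNK signalling and motor proteins. Probe set 3762527 read 7.92, 8.08, 7.90 and 7.89 in the 4 steroid-deplete arrays and 6.43, 6.66, 6.93 and 6.30 in the 4 R1881 arrays, a difference of -1.37. Its neighbour 3762528 read 8.48, 8.39, 8.19 and 8.38 against 7.14, 7.27, 6.98 and 6.40, a difference of -1.41. In both probe sets every R1881 array lay below every steroid-deplete array. The remaining *SPAG9* probe set, 3762521, differed by -1.46, from 9.02 ± 0.29 to 7.56 ± 0.08 (SD, n = 4). All 3 belonged to the first 8 of the 39 probe sets of the gene, and all 8 were lower after R1881, with a median of -1.39 and a range from -1.72 to -0.36. The 31 that follow had a median of -0.17, and none of them reached 1 in size. The gene-level value was 7.18 ± 0.12 and 6.91 ± 0.21 (SD, n = 4), a difference of -0.27. It was -0.33 without steroid-deplete replicate 1 and -0.36 without R1881 replicate 3, which takes the gene past the limit of 0.3.

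*PDE4D*, on the minus strand of chromosome 5, encodes a phosphodiesterase that degrades cyclic AMP, and is known for many isoforms that start at different promoters. Its last probe set in identifier order, 2858433, read 4.32, 4.99, 5.67 and 5.07 in steroid-deplete medium and 7.22, 7.45, 7.22 and 6.94 with R1881. The difference was 2.20, or 4.58-fold, and every R1881 array lay above every control. Probe set 2858345, in place 34 of 41, went the other way, from 7.88, 8.02, 8.40 and 8.19 to 5.71, 6.11, 5.73 and 6.28, a difference of -2.17. Both ends of this contrast therefore had separate groups, in opposite directions, within 1 gene.

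The probe sets around each of these *PDE4D* members went the same way. Places 40 and 41 differed by 1.67 and 2.20, places 37 to 39 by 0.18 to 0.30, and places 34 to 36 by -1.45 to -2.24. The middle one of the last group, 2858346, had the lowest difference (-2.24) but missed the level limit, with a mean of 6.50 in steroid-deplete medium. Further along, places 23 to 27 were all lower, with a median of -1.01, and held the members 2858211 (-1.09) and 2858215 (-1.01). Places 17 to 22 lay between -0.07 and 0.32. Of places 1 to 16, 13 were lower, with a median of -0.61. At gene level the values were 5.46 ± 0.15 and 5.19 ± 0.11 (SD, n = 4), a difference of -0.27 whose 4 arrays of each group did not overlap. Leaving out 1 array moved it between -0.19 and -0.30, and the 2 values past 0.3 were those without R1881 replicate 2 and without steroid-deplete replicate 1.

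*TACC2*, on the plus strand of chromosome 10, encodes a coiled-coil protein of the centrosome and spindle. Its first probe set, 3268071, read 8.89, 8.60, 9.0 and 9.31 in steroid-deplete medium and 6.97, 7.09, 7.41 and 6.61 with R1881, a difference of -1.93. Probe set 3268086, in place 5, differed by -1.64, from 7.30 ± 0.38 to 5.66 ± 0.20 (SD, n = 4). Probe set 3268188, in place 28, read 6.48, 6.71, 7.20 and 6.68 and then 7.40, 7.82, 8.00 and 8.01, a difference of 1.04. In each of the 3 the groups did not overlap. Of the first 10 probe sets 9 were lower, with a median of -1.05, and the 25 that follow were all higher, with a median of 0.58 and a range from 0.18 to 1.27. The gene-level difference was 0.21, and the probe sets on either side of 3268188, which have no gene symbol, differed by 1.02 and 1.62.

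**Figure D2:**
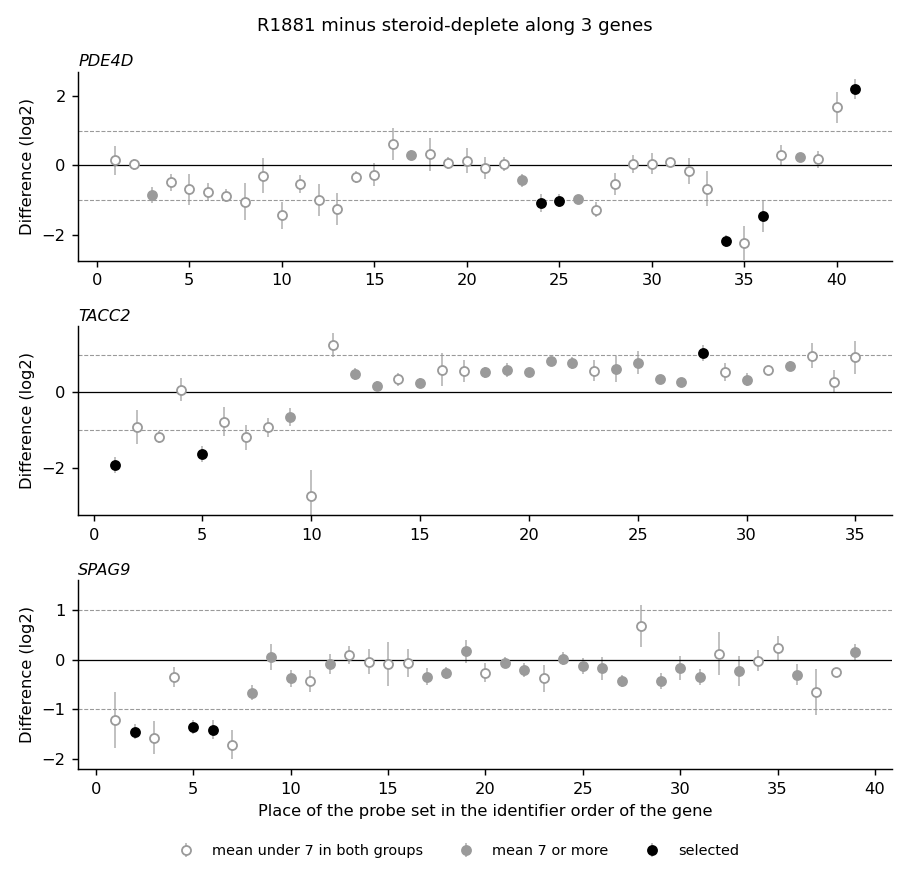
Exon-level RMA difference between R1881 and steroid-deplete medium (vertical axis, log2; bars are the standard error of the difference, n = 4 per group) for each probe set of *PDE4D*, *TACC2* and *SPAG9*, in identifier order (horizontal axis). Black points were selected, grey points had a mean of 7 or more in a group, open points had not; *TACC2* passes from mostly negative to positive after place 10, and *SPAG9* from about -1.39 to about -0.17 after place 8.

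*TSC2*, on the plus strand of chromosome 16, encodes tuberin, which with TSC1 restrains the kinase complex mTORC1. Only its last probe set of 44, 3644468, was selected, reading 6.80, 7.56, 7.17 and 7.47 in steroid-deplete medium and 8.31, 8.28, 8.30 and 8.27 with R1881. The difference was 1.04, and the R1881 arrays lay closer together (SD 0.02) than the steroid-deplete arrays (SD 0.34). It was the last of 9 probe sets that were all higher, by 0.30 to 1.04 with a median of 0.70. Of the 35 before them, 28 were lower and the median was -0.22. The gene-level values were 7.96 ± 0.11 and 7.93 ± 0.12 (SD, n = 4). The symbol *TSC2* also occurs in a gene-level cluster of several symbols, which was not used here.

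*RIMS1*, on the plus strand of chromosome 6, encodes a scaffold of the presynaptic active zone. Its member 2913186 read 7.65, 7.53, 7.76 and 7.65 and then 6.45, 6.27, 6.18 and 6.49, a difference of -1.30 with an SD of 0.10 and 0.15. The 2 groups were far apart, and this probe set stood in place 18 of 44, within a stretch (places 10 to 21) where 11 of 12 were lower with a median of -0.81. At the far end, places 34 to 44 were all higher, by 0.46 to 0.99 with a median of 0.72, and none reached the limit of 1. The gene-level difference was 0.04.

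*SRPK2* encodes a kinase of the serine- and arginine-rich splicing factors. Its probe set 3066376 read 7.52, 7.84, 8.05 and 7.69 in steroid-deplete medium and 5.88, 5.33, 6.24 and 5.69 with R1881, a difference of -1.99. Its other member, 3066374, differed by -1.27 and stood in the place before it. Around them, places 17 to 20 of 23 were all lower with a median of -0.99, whereas places 1 to 16 had a median of -0.22 and places 21 to 23 lay between 0.15 and 0.35. The gene-level difference, -0.30 after rounding, was close to the limit and passed it without R1881 replicate 1 or 2 or steroid-deplete replicate 1 or 4 (-0.31 to -0.33). *CLK3*, another kinase of these splicing factors, had a single member at its first probe set (-1.06).

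*GATA6* encodes a zinc finger transcription factor of endoderm and heart. Its members 3781276 and 3781279 differed by -1.37 and -1.33. Both lay in the last 6 of 16 probe sets, which were all lower with a median of -1.14, while the first 10 had a median of 0.12. *TRNP1* likewise had its lower stretch at the end. *TRNP1*, which encodes a nuclear protein studied in mouse neural progenitors, read 6.86, 6.93, 7.60 and 7.42 in probe set 2326860 and then 5.52, 4.96, 5.56 and 5.53, a difference of -1.81. The last 3 of its 8 probe sets had a median of -1.57 and the first 5 a median of 0.26. *NANOS1*, which encodes a translational repressor that binds RNA, read 7.13, 7.38, 7.74 and 7.71 in probe set 3266944 and then 5.46, 5.78, 6.03 and 5.71. This difference of -1.74 came with one of -1.38 at the next identifier, and the first 6 probe sets of the gene lay between -0.30 and 0.31. The 5 probe sets after these 2 had a median of 0.01, with a range from -1.08 to 0.27. Their group means were low, between 1.83 and 5.75, so where the lower stretch ends could not be read.

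**Figure D3:**
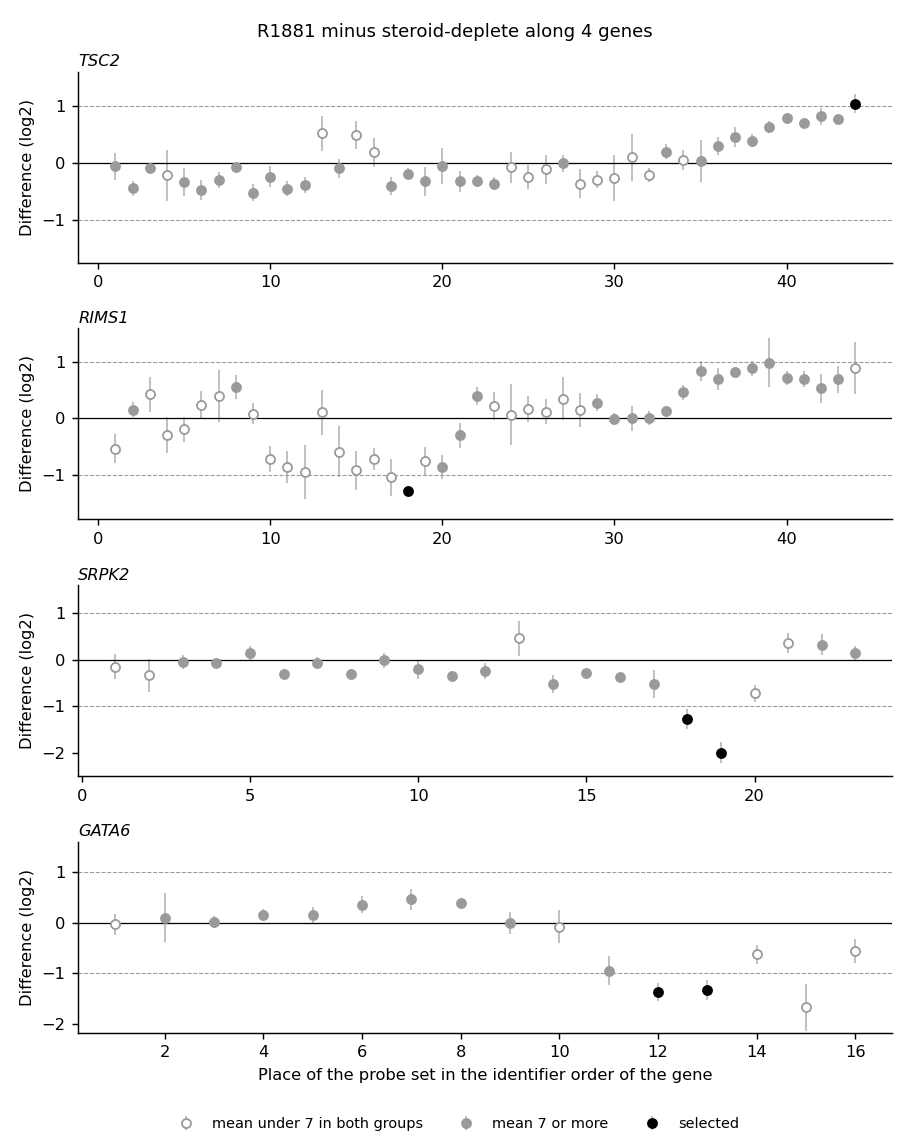
Exon-level RMA difference between R1881 and steroid-deplete medium (vertical axis, log2; bars are the standard error of the difference, n = 4 per group) for each probe set of *TSC2*, *RIMS1*, *SRPK2* and *GATA6*, in identifier order (horizontal axis). The last 9 probe sets of *TSC2* and the last 11 of *RIMS1* are above 0, and the last 6 of *GATA6* are below 0; point colours are as in the plot of *PDE4D*, *TACC2* and *SPAG9*.

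In other genes the neighbours of a member in identifier order did not go with it. *DBP*, which encodes a circadian transcription factor, had 13 probe sets, of which 3867249 read 7.66, 7.76, 7.46 and 7.65 and then 5.80, 5.92, 5.52 and 5.58. It differed by -1.93 between neighbours at 0.49 and 0.13, and a second member, 3867255, differed by -1.32 between neighbours at -0.15 and -0.19. *GSC*, which encodes the goosecoid homeobox factor, read 8.10, 8.27, 8.14 and 8.32 in its first probe set, 3577786, and then 6.03, 6.14, 6.77 and 6.72. The difference was -1.80 and that of the next probe set was 0.18, but place 5 of its 8 probe sets, with means of 4.70 and 3.44, differed by -1.26. The other 6 were under 0.5 in size. In each of these members of *DBP* and *GSC*, every R1881 array lay below every steroid-deplete array.

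Of the highest differences, some came from single probe sets and some from short stretches. *TEX29*, named for expression in testis, read 6.28, 6.26, 6.0 and 5.78 in its first probe set, 3501770, and then 8.87, 8.53, 7.94 and 8.58, a difference of 2.40 or 5.28-fold. The 6 other probe sets of the gene lay between -0.69 and 0.38. *NNT*, which encodes the nicotinamide nucleotide transhydrogenase of mitochondria, read 5.52, 4.50, 5.54 and 5.23 in probe set 2808490 and then 7.61, 7.53, 7.72 and 7.17, a difference of 2.31. Its neighbours in places 23 and 25 were higher by 1.78 and 0.66, at lower levels, and places 1 to 22 lay between -0.47 and 0.25.

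*ZSCAN10*, a zinc finger factor known from mouse embryonic stem cells, read 7.43, 7.43, 7.69 and 7.64 in its last probe set, 3677441, and then 9.47, 9.20, 9.28 and 9.10, a difference of 1.71. *RNLS*, which encodes the flavoprotein renalase, read 8.30, 8.18, 7.94 and 8.05 in probe set 3299445 and then 9.44, 9.38, 9.83 and 9.75, a difference of 1.49. In *ZSCAN10* the 8 other probe sets lay between -0.04 and 0.56, and in *RNLS* the next one was higher by 0.86. *CDSN*, which encodes corneodesmosin of the cornified skin layer, was higher by 1.41 in 2948798 while its neighbours differed by -0.61 and -0.67. *GK2*, a glycerol kinase of testis, was higher by 1.21 in 2774945, the last of 5 probe sets. *BCAR3*, which encodes an adaptor with an SH2 domain, was higher by 1.20 in 2423449 between neighbours at 0.04 and -0.04. In the member of each of these 5 genes, the 4 R1881 arrays lay above the 4 steroid-deplete arrays, but the selection on the difference of means favours this.

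**Figure D4:**
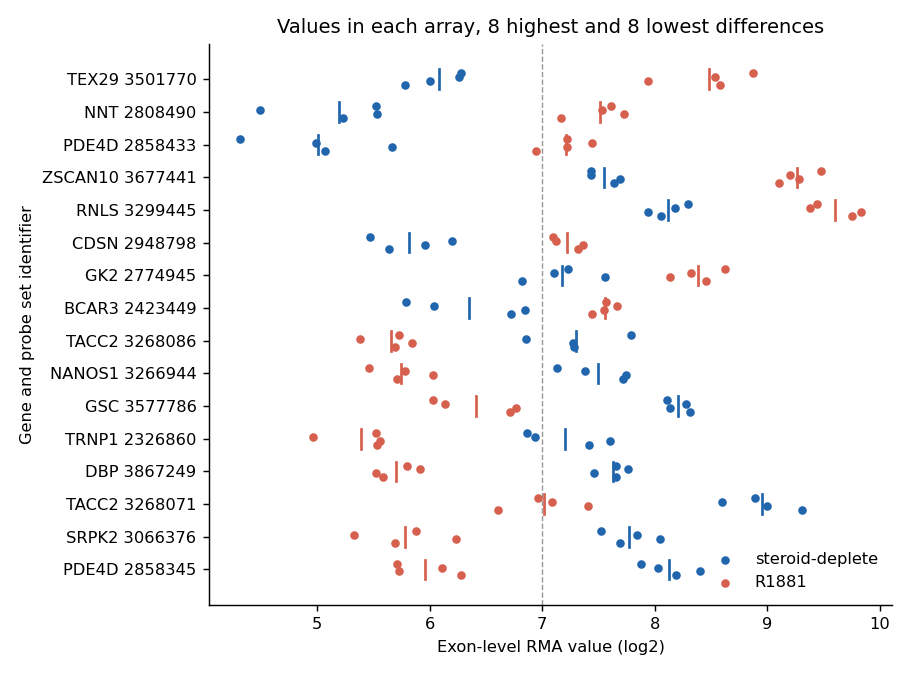
Exon-level RMA value (horizontal axis, log2) in each of the 4 steroid-deplete arrays (blue) and 4 R1881 arrays (red) for the 8 probe sets with the highest and the 8 with the lowest difference, named by gene and identifier (vertical axis). Short vertical lines are group means and the dashed line is the level limit of 7. The groups do not overlap in any of the 16, which were picked for the size of this difference.

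Across all 87, the 4 arrays of each group did not overlap in 82. That was so in 9.89% of the 44838 probe sets, and the selection on the difference of means used the same values, so nothing is read from the contrast. The 5 with overlapping arrays were in *ZNF43*, *EXOSC7*, *PHF6*, *UBA6* and *TM9SF3*. The median SD of the members was 0.26 in steroid-deplete medium and 0.29 with R1881, and over the 44838 it was 0.20 and 0.21. In 66 of the 87, the mean of the other group lay under 7, down to 5.01 in *PDE4D*.

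The genes themselves were steady only as far as the limit of 0.3 asks. The median size of the gene-level difference was 0.19 in the 72 genes and 0.11 in all 6962, and it exceeded 0.2 in 32 (44.4%) and in 19.0%, respectively. Of the 44 genes with only lower members, 39 had a gene-level difference below 0, and of the 26 with only higher members, 21 had one above 0. The shares of all 6962 genes below and above 0 were not counted. A member can also contribute to the value of its own gene, so nothing is read from these signs. Gene-level medians of the arrays were 6.33 to 6.40 in steroid-deplete medium and 6.22 to 6.31 with R1881. The gene-level arrays of the 2 groups did not overlap in 23 of the 72 genes, against 10.2% of the 6962. When the difference was taken relative to the gene, 47 probe sets reached 1.

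Of the 87, 84 lay among the identifiers of their own gene cluster and had a neighbouring probe set of the same gene. In 49 of the 84 (58.3%) a neighbour on at least 1 side differed by 0.5 or more in the same direction, against 10.3% of probe sets that met the other conditions. This was so for 39 of 56 lower members and 10 of 28 higher members. Members were the first or last probe set of their gene in 14 cases (16.7%), 7 higher and 7 lower, against 10.4%. Irrespective of gene symbol, 115 different probe sets had an identifier next to a member, and 17 of them (14.8%) differed by 1 or more the same way. These 17 include the 2 adjacent *SPAG9* members, which were themselves selected, and 4 without a symbol. Among 63245 identifier neighbours of the other probe sets that met the other conditions, the share was 0.468%. The remaining 3 members, in *RRM2*, *PSMB7* and *RPS29*, had identifiers outside those of their gene cluster, so their gene rests on the symbol alone. None of these shares was tested, because neighbours and members come from the same contrast.

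Some members were far brighter than their gene. In 21 members of 19 genes the higher group mean stood more than 2 above the gene-level value, 13 of them higher and 8 lower after R1881, against 13% of the 44838. In *GK2* the gene-level value was 3.21 and the member reached 8.38, and in *RNLS* these were 4.75 and 9.60. The gene-level mean was under 6 in 18 of the 72 genes.

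By role, as grouped after the values were seen, 10 genes encode transcription factors or similar DNA-binding proteins (*CASZ1*, *DBP*, *GATA6*, *GSC*, *HOXC12*, *TEAD4*, *ZNF43*, *ZNF568*, *ZNF703* and *ZSCAN10*). Of their 12 members 11 were lower and 1, in *ZSCAN10*, was higher, where 59 of all 87 members (67.8%) were lower. These 10 genes had 71 probe sets that met the other conditions, and since the group was made from genes that hold members, nothing is read from its count. Among chromatin genes, the DNA methyltransferase *DNMT3A* had 2 lower members (-1.22 and -1.01), the histone demethylase *KDM2B* had 1 lower and *PHF6* had 1 higher. The 2 ubiquitin-like activating enzymes differed in opposite directions, *UBA7* at -1.25 and *UBA6* at 1.01. Of 5 genes of neuronal membranes and synapses, with 45 probe sets that met the other conditions, 4 had a lower member and 1 a higher one. This group was also made from genes that hold members and may leave some out, so nothing is read from its count either. *SRCIN1* differed by -1.56, *RIMS1* by -1.30, *KCNIP3* by -1.28 and *ADRA2C* by -1.21, whereas *P2RX3* differed by 1.00. Beside *NNT*, the mitochondrial genes *ATP5MC3* and *NT5M* had 3 members, all lower, at -1.08 to -1.33.

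By symbol family, counted as genes with a member among genes with a probe set that met the other conditions, there were 3 of 170 *ZNF* genes and 2 of 36 *RAB* genes. None was found among 156 solute carriers (*SLC*), 80 genes of matrix and adhesion, 56 splicing regulators and 45 motor proteins. Over all genes the count was 72 of 6962, so the few genes of each family allow no comparison.

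The study followed 7 isoform genes, which it picked from these arrays. It also found their isoform changes by RT-PCR, in the array samples and in an independent set. *PDE4D*, *TACC2*, *TSC2* and *RIMS1* held members. *NDUFV3*, which encodes a subunit of respiratory complex I, had 12 probe sets that differed by -0.59 to 0.49 and a gene-level difference of 0.09. By RT-PCR the study reported more skipping of an internal exon of *NDUFV3* with androgen. Which probe set reads that exon was not analysed here. *WEE1*, which encodes a kinase that holds back entry into mitosis, had 11 of 31 probe sets at 1 or more in size, but its gene-level difference was -0.68. For *ZNF121* no gene-level cluster of that symbol alone was used.

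The second summary of the same arrays, Iter-PLIER, was compared on log2(value + 16), which understates the change of dim probe sets. All 87 kept their sign, with sizes between 0.74 and 2.73, and 66 reached 1, against 0.277% of the 44838. The 87 were selected by RMA on the same arrays and contrast. This therefore describes how the value depends on the summary and is no support for the differences. At gene level the summaries differed more, and 22 of the 72 genes were under 0.3 in Iter-PLIER, where the range was -1.67 to 0.88. The same count over all 6962 genes was not made, so it is not read as a trait of the 72. In *SPAG9* the gene-level difference was -0.27 by RMA and -0.97 by Iter-PLIER. In *PDE4D* these were -0.27 and -1.24, in *TACC2* 0.21 and 0.81, and in *RIMS1* 0.04 and 0.73. Whether these genes counted as unchanged thus depended on the summary. For *NNT* (0.03 and 0.10) it did not. Its gene-level RMA means were low, however, at 3.95 and 3.98 against array medians between 6.22 and 6.40, so little is read from this.

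**Figure D5:**
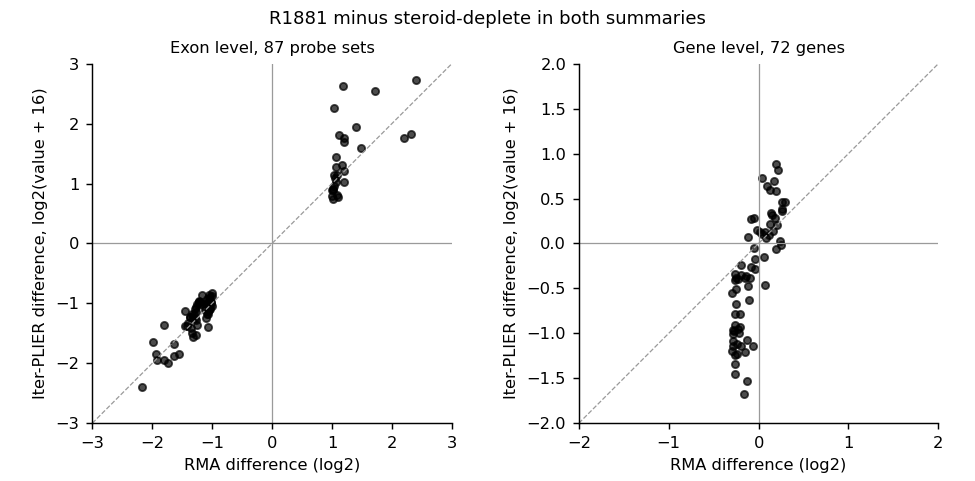
Difference between R1881 and steroid-deplete medium by RMA (horizontal axes, log2) and by Iter-PLIER (vertical axes, log2(value + 16)), for the 87 selected probe sets (left) and for the 72 genes that hold them (right); the dashed line is equality. All 87 probe sets keep their sign, while the genes, held within 0.3 by RMA, spread from -1.67 to 0.88 by Iter-PLIER. Both summaries come from the arrays that selected the probe sets, so the shared sign is no support.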

How the data were processed

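Human Exon 1.0 ST Arrays of 8 RNA samples gave 32 deposited sets of values, 4 summaries for each array. The authors made the deposited RMA values, on the log2 scale, at gene and exon level, and the deposited Iter-PLIER values, which are intensity on a linear scale. Gene-level RMA was restricted to core probe sets and included quantile normalisation. For exon level the methods speak of PLIER where the labels have Iter-PLIER. The submitters' notes name hg18 and give no tool version. The only filter on dim probe sets was the level limit, and the number of arrays limits the precision.

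Symbols came from the array annotations (257184 exon-level probe sets and 13482 gene-level clusters had 1 symbol). Older symbols were updated through RefSeq synonyms, for 33730 probe sets and 20 clusters. All 32 columns were mapped to samples by accession. Iter-PLIER values were compared as log2(value + 16). Group means, SD and counts were computed in Python 3.11.15 with numpy 2.4.6 and pandas 2.3.3, and no p-value was computed. The code of the rule was run on simulated differences far above the limit of 1, so members near the limit were not covered.

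The members and lists were chosen with earlier results of these data known. Named were genes with adjacent members, the 8 highest and 8 lowest members, 3 on each side of the limit, the study's 7 isoform genes and *KLK3*. Other genes were named after their values were seen. Alternatives changed the summary, the limits, the centring, the average, the arrays and the symbols.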

Additional observations from a re-analysis of the deposited data

Results flagged for a closer look

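In groups of 4 arrays, an array was marked when its gap to the nearest other, as a share of the range of the group, exceeded the critical value of Dixon's test. Over 96 groups, of the members named by rule and of their genes, 5 were marked. Chance marks about 1 in 20 groups. In steroid-deplete medium, *SPAG9* probe set 3762527 stood high in replicate 2 (8.08). With R1881, *SPAG9* probe set 3762521 stood low in replicate 3 (7.44), *PDE4D* probe set 2858211 stood low in replicate 1 (6.36), and *TRNP1* probe set 2326860 stood low in replicate 2 (4.96). At gene level, *ZSCAN10* stood apart in R1881 replicate 1 (5.29). In each of these 4 probe sets the groups still did not overlap.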

How the results depend on the processing

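No paired analysis was possible because the selected differences carry no test in which a block could be fitted. Pairing by replicate number would move no difference of means, since the mean of 4 within-number differences equals the difference of the group means. The counts follow the limits closely, and causes were not tested. The 28 higher, 59 lower, 72 genes and 1 gene with adjacent members became, in this order, 113, 96, 183 and 5 with exon-level Iter-PLIER as log2(value + 16), 130, 141, 238 and 5 as log2(value + 1), and 13, 9, 22 and 0 with gene-level Iter-PLIER. Level limits gave 15, 13, 27 and 0 for 8 or more in 1 group, 436, 808, 964 and 31 with none, and 13, 8, 21 and 0 for 7 or more in both groups. An exon-level limit of 1.5 gave 4, 10, 12 and 0, and a difference relative to the gene gave 14, 33, 39 and 2. A gene-level limit of 0.2 left 20, 21, 40 and 0, and one of 0.5 gave 66, 282, 237 and 14. Gene-level centring gave 22, 114, 112 and 3, and group medians left 0 genes with adjacent members. With the next deposited probe set as adjacent there were 4 such genes, and 0 had a run of 3.

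Without 1 array at a time there were 23 to 39 higher, 57 to 88 lower, 78 to 97 genes and 1 to 3 genes with adjacent members, 3 without R1881 replicate 1, and 35 of the 87 met the rule each time. Without steroid-deplete replicate 1, and without R1881 replicate 3, the 1 gene with adjacent members was *GATA6* in place of *SPAG9*. Without steroid-deplete replicate 1 and R1881 replicate 4 there were 98 genes and 2 with adjacent members. After the data were seen, unchanged symbols (77 members), genes in no cluster of several symbols (84) and identifiers inside the cluster (84) were added. Of 336 differences of 28 named members, 331 moved by no more than the larger group SD, but most of these could not have moved further. Leaving out 1 array of a group of 4, or 1 of each group, cannot shift a difference of means by more than that SD. Centring shifted all differences by the same small amount. So the 331 are no measure of stability. With exon-level Iter-PLIER 5 of the 28 moved further, and with group medians none did. None changed sign.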
